A study of Saccharomyces cerevisiae with 12 samples.

Results

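The genes described here encode 10 carriers that move pyruvate and organic acids across the inner mitochondrial membrane of Saccharomyces cerevisiae. They are MPC1, MPC2 and MPC3, ODC1 and ODC2, SFC1, DIC1, CTP1, YHM2 and OAC1. They were listed by name, with earlier results of these data known. The array annotation gave each of them 1 probe set of its own, so that all 10 were measured among the 5449 yeast genes tested. All samples were the commercial wine yeast strain EC1118. The reference group was a culture in YPD, a rich glucose medium, taken at 28 °C in exponential growth at an optical density of 1.0. The bottle groups came from a second fermentation, in which base wine with 20 g/L sucrose and cells adapted to ethanol beforehand was sealed in 350 mL bottles and kept still at 16 °C. The sampling times were day 7, day 15 and day 19, and the labels give ethanol increases of 0.26%, 0.89% and 1.27% for them. Each of the 4 groups held 3 arrays. The reference differs from the bottles in medium, temperature, ethanol, shaking and growth phase together, and these cannot be told apart.

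The inner mitochondrial membrane is closed to most metabolites, and dedicated carriers exchange them between matrix and cytosol. Pyruvate enters through a complex that in yeast pairs Mpc1 with either Mpc2 or Mpc3, the first pairing being known from fermenting cells and the second from respiring cells. The other carriers belong to the large mitochondrial carrier family. Sfc1 exchanges succinate for fumarate and is needed for growth on ethanol or acetate, Dic1 exchanges malate or succinate for phosphate, and Odc1 and Odc2 carry 2-oxoglutarate and 2-oxoadipate. Ctp1 exports citrate, Yhm2 exchanges citrate for 2-oxoglutarate, and Oac1 carries oxaloacetate, sulfate and the leucine precursor 2-isopropylmalate.

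Values are log2 probe set values, and each gene's own values are compared between arrays. Levels of different genes are not compared, because probe sets differ in brightness. Replicate arrays lay closer together in the reference, where the median SD of the 10 carriers was 0.102, than at day 7 (0.498), day 15 (0.399) or day 19 (0.814). Day 7 replicate 1 and day 19 replicate 1 were known beforehand to stand apart from the other bottle arrays, and carrier calls that change without them are given both ways. Sizes of calls that held could also move. Without both arrays the day 19 differences from the reference were smaller for MPC3, ODC1 and SFC1, at 2.32, 2.27 and 4.69. RNA controls on the arrays moved with the groups. The mean log2 value of 6 ribosomal RNA probe sets was 5.58 to 8.05 in the reference and 11.15 to 13.31 in the bottles. Of 3 genes with control probe sets at both ends, 2 had a larger excess of the 3' over the 5' probe set in all bottle arrays, YER022W at 1.61 to 2.49 against 0.85 to 1.59 in the reference and YER148W at 1.53 to 1.90 against 1.24 to 1.35. The third, YFL039C, overlapped, at -0.06 to 0.38 against -0.07 to 0.14. The part of these differences in the results was not tested. Under a correction of the values for coding length, chosen after seeing the data, each of the 5, 5 and 6 carriers called at the 3 times was called again in the same direction. That correction uses coding length alone and takes in neither the ribosomal RNA values nor those of the 3' and 5' control probe sets. Equal masses of total RNA (5 µg) were labelled, so fewer cells with a transcript and less transcript per cell cannot be told apart.

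The carriers did not move together. MPC3, ODC1 and SFC1 were higher in the bottles than in the reference at all 3 times, CTP1 and YHM2 were lower at all 3 times, and ODC2 was lower at day 19. MPC1, MPC2, DIC1 and OAC1 passed the test at none of the 3 times. With limma at an adjusted p under 0.05, 3 carriers were higher and 2 lower at day 7, where 19.7% and 17.1% of all genes tested were called higher and lower, 36.8% in all. At day 15 again 3 were higher and 2 lower, beside 21.4% and 23.5% of all genes and 44.9% in all. At day 19 the counts were 3 and 3, beside 22.7% and 20.8% and 43.5% in all. The 3 comparisons share the reference arrays. With 5, 5 and 6 of 10 called, the carriers were not far from the shares of all genes. The median log2 difference of the 10 carriers was 0.22, 0.42 and 0.15 at the 3 times, and that of all genes was -0.03, -0.08 and -0.03. The arrays of bottle and reference did not overlap for 6, 9 and 6 of the 10 carriers, which compares with 63.8%, 70.8% and 59.5% of all genes.

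**Figure D1:**
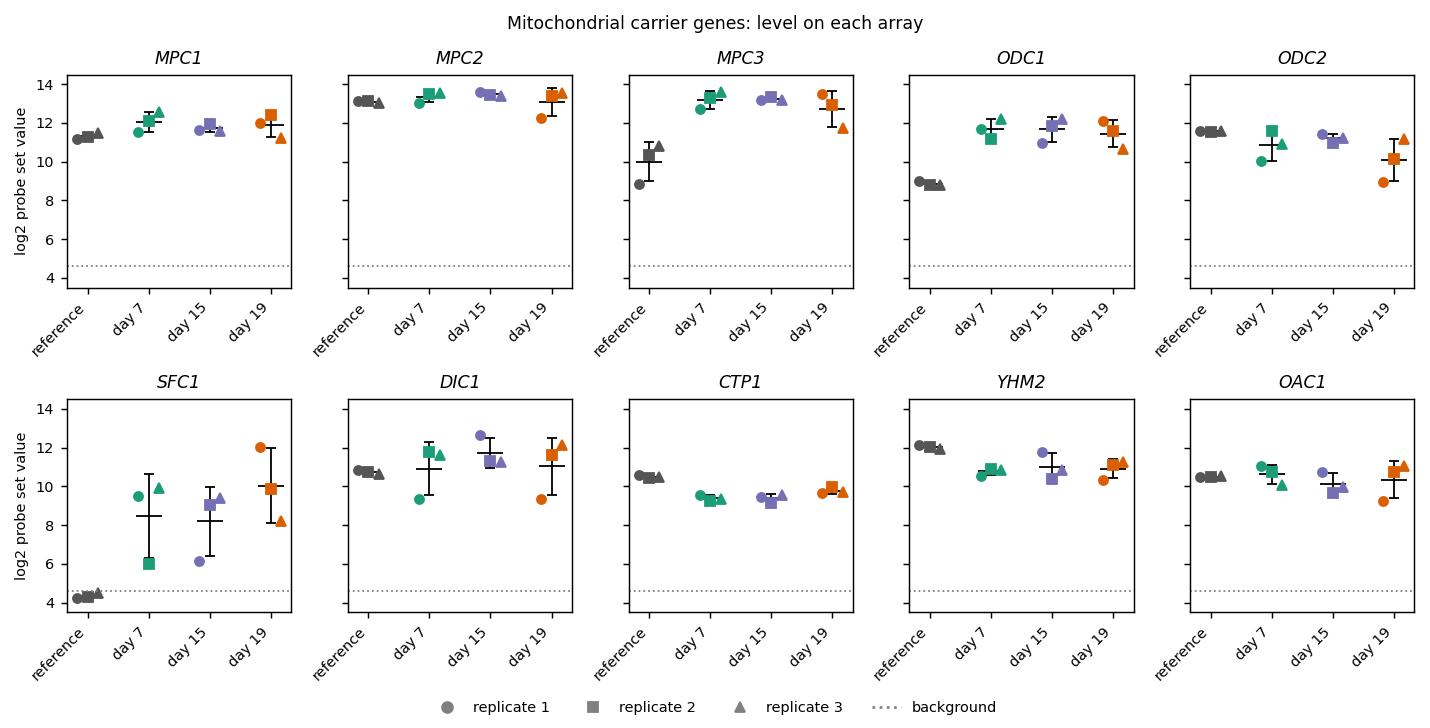
Log2 probe set values (y axis) of the 10 carrier genes on the 12 arrays, by group (x axis). Symbols mark the replicate number, the horizontal bar and error bar are the mean and SD of 3 arrays, and the dotted line is the background of 4.62. MPC3, ODC1 and SFC1 lie higher in every bottle array than in the reference, and CTP1 and YHM2 lie lower in every bottle array.

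**Figure D2:**
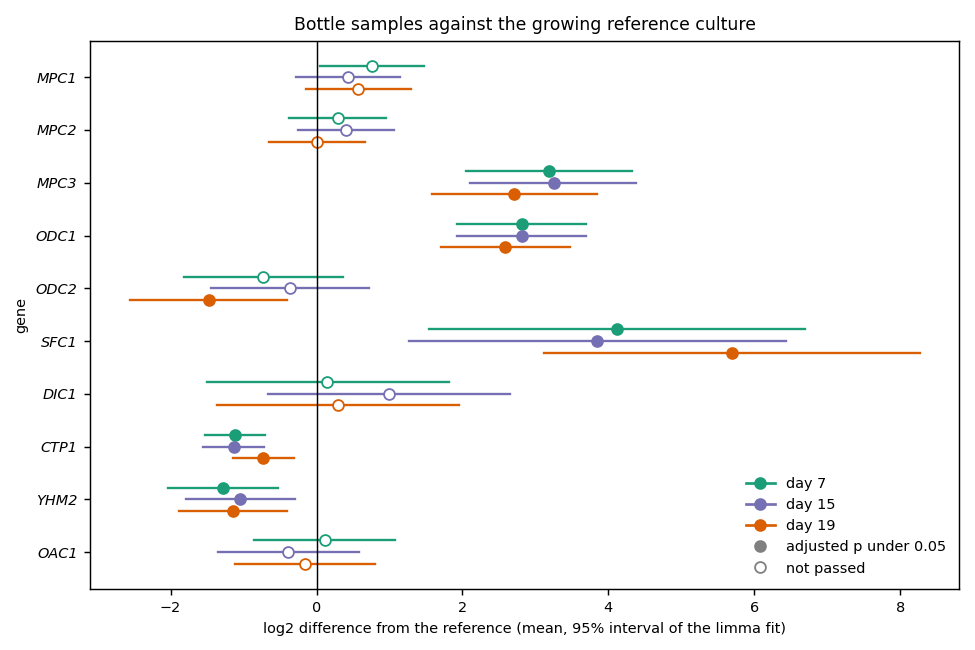
Log2 difference of each carrier gene from the reference (x axis) at day 7, day 15 and day 19, with the 95% interval of the limma fit on 12 arrays. Filled points have an adjusted p under 0.05. MPC3, ODC1 and SFC1 are filled to the right of 0 at all 3 times, and CTP1 and YHM2 to the left.

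The pyruvate carrier genes differed in how far they moved. MPC3, which encodes the Mpc1 partner known from respiring cells, read 8.85, 10.36 and 10.81 on the reference arrays. It read 12.70, 13.29 and 13.58 at day 7, 13.19, 13.36 and 13.20 at day 15, and 13.50, 12.93 and 11.72 at day 19. Every bottle array lay above every reference array, and reference replicate 1 lay well below the other 2 reference arrays. The log2 difference from the reference was 3.18 ± 0.517 (standard error) at day 7, 3.25 ± 0.517 at day 15 and 2.71 ± 0.517 at day 19, or 9.09-fold, 9.50-fold and 6.54-fold. The limma adjusted p values were 0.000989, 0.000717 and 0.00213. Without reference replicate 1 the differences were 2.60, 2.67 and 2.13, with adjusted p = 0.00364, 0.00272 and 0.00798.

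MPC2 encodes the partner known from fermenting cells. It read 13.11, 13.11 and 13.01 in the reference, 13.04, 13.51 and 13.54 at day 7, 13.59, 13.45 and 13.41 at day 15, and 12.28, 13.41 and 13.56 at day 19. The day 15 arrays lay above the reference, and those of day 7 and day 19 overlapped it. The log2 differences were 0.29, 0.40 and 0.01 (limma adjusted p = 0.473, 0.290 and 0.986). The 95% interval was -0.38 to 0.95 for day 7, -0.26 to 1.06 for day 15 and -0.65 to 0.67 for day 19. Day 19 replicate 1 was the lowest array. Leaving out that array and day 7 replicate 1 gave differences of 0.45, 0.40 and 0.41 with adjusted p = 0.0420, 0.0307 and 0.0498, which turns all 3 into calls. When the fit held only the bottle day and the reference arrays, day 15 passed (limma adjusted p = 0.0313). Day 7 and day 19 did not (0.217 and 0.989).

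MPC1, the subunit common to both pairings, read 11.16, 11.28 and 11.46 in the reference, 11.53, 12.09 and 12.57 at day 7, 11.66, 11.96 and 11.57 at day 15, and from 11.20 up to 12.41 at day 19. All arrays of day 7 and day 15 lay above the reference, and day 19 overlapped it. The differences of 0.76 ± 0.326, 0.43 ± 0.326 and 0.57 ± 0.326 did not pass (limma adjusted p = 0.085, 0.297 and 0.175). Without day 7 replicate 1 the day 7 difference was 1.03 with adjusted p = 0.0353, and without day 19 replicate 3 the differences at day 7 and day 19 were 0.76 and 0.91 with adjusted p = 0.0432 and 0.0374.

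The difference between the 2 alternative partners was tested within arrays, which asks whether they changed unequally and says nothing of which transcript is more abundant. MPC3 minus MPC2 was -4.27, -2.75 and -2.20 on the reference arrays. In the 9 bottle arrays it ran from -1.85 to 1.22 with a median of -0.22, and no bottle array overlapped the reference. The mean moved by 2.81 on the log2 scale, a 7.03-fold relative gain of MPC3, with p = 0.00455 in a two-sided exact permutation test of 3 against 9 arrays, which is the smallest p that test can give (adjusted p = 0.00606 over 4 gene pairs). MPC3 minus MPC1 moved by 2.46 with the same p and adjusted p, from a range of -2.32 to -0.65 in the reference to 0.52 to 1.63 in the bottles. MPC2 minus MPC1 moved by -0.36 (exact permutation p = 0.350, adjusted p = 0.350), and its reference range of 1.55 to 1.95 lay inside the bottle range of 0.28 to 2.36. At day 19 the spread of MPC3 minus MPC2 was wide, with an SD of 1.53 against 0.193 at day 7 and 0.155 at day 15.

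**Figure D3:**
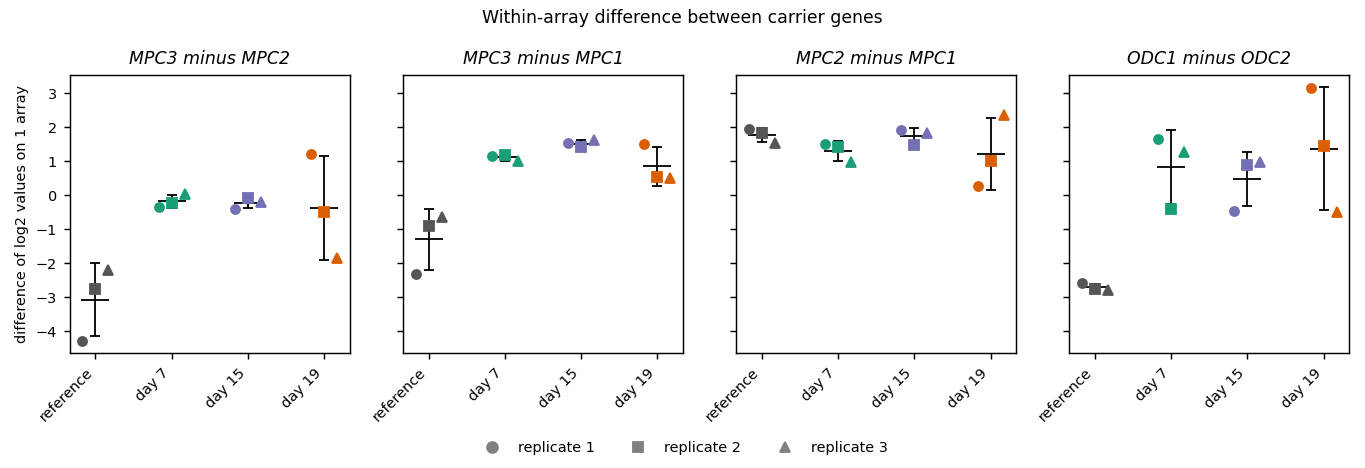
Difference between the log2 values of 2 carrier genes on the same array (y axis) in each group (x axis), with the mean and SD of 3 arrays. Only shifts between groups are meaningful, since the zero point depends on the probe sets. The bottle arrays lie above all reference arrays for MPC3 minus MPC2, MPC3 minus MPC1 and ODC1 minus ODC2, and overlap them for MPC2 minus MPC1.

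The paralogous 2-oxodicarboxylate carriers did not move alike: ODC1 was higher in the bottles at all 3 times and ODC2 was lower at day 19. ODC1 read 8.98, 8.79 and 8.81 in the reference, 11.67, 11.16 and 12.19 at day 7, 10.97, 11.83 and 12.21 at day 15, and 12.10, 11.57 and 10.68 at day 19. The lowest bottle array, at 10.68, was still above the highest reference array. ODC1 rose by 2.81 ± 0.403 at day 7, 2.81 ± 0.403 at day 15 and 2.59 ± 0.403 at day 19 (limma adjusted p = 0.000460, 0.000416 and 0.000641), or 7.02-fold, 7.00-fold and 6.02-fold.

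ODC2 read 11.56, 11.55 and 11.58 in the reference, 10.01, 11.57 and 10.93 at day 7, 11.41, 10.94 and 11.24 at day 15, and 8.96, 10.13 and 11.16 at day 19. Its day 7 arrays reached up to the reference level, those of day 15 lay just below it, and those of day 19 were scattered over more than 2 log2 units below it. The differences from the reference were -0.73 ± 0.493, -0.36 ± 0.493 and -1.48 ± 0.493, and only day 19 passed (limma adjusted p = 0.264, 0.567 and 0.0312). The day 19 call rests on single arrays. It was lost without reference replicate 1, 2 or 3 (adjusted p = 0.0755, 0.0761 and 0.0748), without day 19 replicate 2 (0.0599), and without day 19 replicate 1, where the difference shrank to -0.92 (adjusted p = 0.0931). It passed at that size when day 7 replicate 1 was left out as well (adjusted p = 0.0303), and was lost when the fit held only the day 19 and reference arrays (0.0592).

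ODC1 minus ODC2 was -2.58, -2.76 and -2.77 on the reference arrays and ran from -0.48 to 3.14 in the bottles, with a median of 0.97. The shift of 3.59 on the log2 scale, 12.1-fold, gave p = 0.00455 in the two-sided exact permutation test, again the smallest it can give (adjusted p = 0.00606). Within the bottles this difference varied more than those of the pyruvate carrier pairs at day 7 and day 15, with SDs of 1.10 and 0.794.

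SFC1, the succinate-fumarate exchanger, went from background in the reference to a measurable level in the bottles. On the reference arrays it read 4.24, 4.28 and 4.51, and none of the 3 was above that array's background. It read 9.48, 5.97 and 9.94 at day 7, 6.15, 9.06 and 9.38 at day 15, and 12.05, 9.87 and 8.19 at day 19. All 9 bottle arrays were above background, but day 7 replicate 2 and day 15 replicate 1 were far below the other 7. Set against the background level in the reference, SFC1 was at least 12.9-fold higher at day 7, at least 10.7-fold higher at day 15 and at least 38.4-fold higher at day 19. These bounds take in the background but not the spread of the replicates, and single arrays moved them. At day 7 the bound was 9.04-fold without replicate 1, 30.6-fold without replicate 2 and 7.72-fold without replicate 3. At day 15 it was 21.8-fold without replicate 1, 7.95-fold without replicate 2 and 7.10-fold, the lowest of all, without replicate 3. At day 19 it was 19.1-fold without replicate 1, 40.8-fold without replicate 2 and 72.8-fold without replicate 3. The fitted log2 differences were 4.12 ± 1.18, 3.85 ± 1.18 and 5.69 ± 1.18 (limma adjusted p = 0.0186, 0.0204 and 0.00324). Quantile normalization ended the calls at day 7 (3.38, adjusted p = 0.0563) and day 15 (3.19, adjusted p = 0.0592). They were also lost at both times without reference replicate 1 (adjusted p = 0.0539 and 0.0552) or reference replicate 2 (0.0546 and 0.0552), at day 7 without its replicate 1 or 3 (0.0621 and 0.0720) and at day 15 without its replicate 2 or 3 (0.0785 and 0.0825). The day 19 call passed under every setting tried, with a largest adjusted p of 0.0137.

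DIC1, the dicarboxylate carrier, read 10.87, 10.75 and 10.63 in the reference. It read 9.33, 11.76 and 11.62 at day 7, 12.64, 11.33 and 11.25 at day 15, and 9.36, 11.62 and 12.15 at day 19. In the bottles, 7 arrays lay above the reference and 2, day 7 replicate 1 and day 19 replicate 1, lay more than 1 log2 unit below it. No difference passed: they were 0.15 ± 0.755, 0.99 ± 0.755 and 0.30 ± 0.755 (limma adjusted p = 0.890, 0.299 and 0.775). Without those 2 arrays the differences at day 15 and day 19 were 0.99 and 1.14 with adjusted p = 0.0279 and 0.0286. When the fit held only the bottle day and the reference arrays, day 15 passed (limma adjusted p = 0.0491). Day 7 and day 19 did not (0.859 and 0.749).

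The citrate carriers were lower in the bottles. CTP1, the citrate exporter, read 10.61, 10.45 and 10.47 in the reference, 9.57, 9.26 and 9.35 at day 7, 9.44, 9.13 and 9.56 at day 15, and 9.66, 9.97 and 9.70 at day 19. The highest bottle array, at 9.97, lay below the lowest reference array. CTP1 fell by 1.12 ± 0.190 at day 7, 1.13 ± 0.190 at day 15 and 0.73 ± 0.190 at day 19 on the log2 scale (limma adjusted p = 0.00126, 0.000963 and 0.0103). These are falls of 2.17-fold, 2.19-fold and 1.66-fold, and each passed under every setting tried, day 19 with a largest adjusted p of 0.0464. CTP1 had the tightest bottle replicates of the 10 carriers at day 7 and day 19, with SDs of 0.161 and 0.168.

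YHM2, the citrate and 2-oxoglutarate carrier, read 12.15, 12.06 and 11.95 in the reference, 10.56, 10.88 and 10.87 at day 7, 11.79, 10.38 and 10.85 at day 15, and 10.34, 11.11 and 11.27 at day 19. Every bottle array lay below the reference, day 15 replicate 1 only just. The falls were 1.28 ± 0.342, 1.05 ± 0.342 and 1.15 ± 0.342 on the log2 scale (limma adjusted p = 0.0136, 0.0273 and 0.0193). The day 7 call passed under every setting. The day 15 call was lost without reference replicate 1, 2 or 3 (adjusted p = 0.0788, 0.0708 and 0.0567) and without day 15 replicate 2 or 3 (0.120 and 0.0873). The day 19 call was lost without reference replicate 1 or 2 (0.0616 and 0.0564) and without day 19 replicate 1 (0.0573), where the difference was -0.86, or without that array and day 7 replicate 1 together (0.0527).

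OAC1, the oxaloacetate carrier, was the member with the narrowest reference values after ODC2, at 10.51, 10.49 and 10.53. Its bottle arrays lay on both sides of them, at 11.03, 10.75 and 10.08 at day 7, 10.74, 9.66 and 9.96 at day 15, and 9.26, 10.72 and 11.05 at day 19. The differences were 0.11 ± 0.439, -0.39 ± 0.439 and -0.16 ± 0.439 (limma adjusted p = 0.859, 0.492 and 0.787). The 95% intervals of -0.85 to 1.07 for day 7, -1.35 to 0.58 for day 15 and -1.12 to 0.80 for day 19 do not show that the level stayed the same.

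Within the bottles no carrier was shown to change with time. In limma's F-test of any difference among day 7, day 15 and day 19, 0 of 10 carriers passed, and 0 had an unadjusted p under 0.05, where 0.0367% of all genes were called and 12.6% had such a p. With array weights, whose fit stopped before it converged, the F-test called 1 carrier, OAC1. That count stands here without the share of all genes, so it is not a result about the carriers alone. Without weights, CTP1 and ODC2 had the smallest adjusted p values in the F-test, 0.443 and 0.454. Between day 7 and day 15, 0 of 10 passed in limma, 0 at an unadjusted p under 0.05, beside 0% of all genes called. Day 7 to day 19 also gave 0 of 10 by either measure, beside 0.147% of all genes called, and day 15 to day 19 gave 0 of 10, 1 of them (ODC2) at an unadjusted p under 0.05, beside 0% of all genes called. The order of the group means was therefore settled only between reference and bottles, and there only for the carriers and times called. CTP1 was the 1 carrier whose day 19 arrays all lay above those of day 7 and of day 15, by 0.38 (95% interval -0.03 to 0.80, adjusted p = 0.435) and 0.40 (-0.01 to 0.82, adjusted p = 0.468). Of all genes, 12% and 12.7% did not overlap in these comparisons, and 15.3% did not between day 7 and day 15, where 0 carriers did so. SFC1 was 1.84 higher at day 19 than at day 15, with an interval from -0.74 to 4.42, and ODC2 was lower by 1.12, with an interval from -2.20 to -0.04 (limma adjusted p = 0.588 and 0.451).

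The bottle arrays of one day differed among themselves, and some carriers varied together over the 9 bottle arrays. All 45 pairs of carriers were correlated, with two-sided exact permutation p-values over the 9 arrays. DIC1 and MPC2 gave r = 0.86 (p = 0.00043, adjusted p = 0.0193) and Spearman's rho = 0.90 (p = 0.00203, adjusted p = 0.0456). Day 7 replicate 1 and day 19 replicate 1 were the arrays farthest from the DIC1 median, and without them r was 0.84 over 7 arrays. ODC2 and MPC2 gave r = 0.90 (exact permutation p = 0.00187, adjusted p = 0.0421) and rho = 0.67 (p = 0.0589, adjusted p = 0.200), but r = 0.53 without the same 2 arrays, so that relation rests on them. SFC1 ran against ODC2, with r = -0.83 (exact permutation p = 0.00367, adjusted p = 0.0550) and rho = -0.88 (p = 0.00308, adjusted p = 0.0461), and r = -0.74 without the 2 arrays. DIC1 and YHM2 gave r = 0.78 (exact permutation p = 0.0128, adjusted p = 0.116) and rho = 0.90 (p = 0.00203, adjusted p = 0.0456), and r = 0.90 without the 2 arrays. ODC1 and SFC1, both higher in the bottles, gave r = 0.73 (exact permutation p = 0.0249, adjusted p = 0.130) and rho = 0.65 (p = 0.0666, adjusted p = 0.200), which did not pass. The within-day values, with 3 arrays each, are too few for a correlation.

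**Figure D4:**
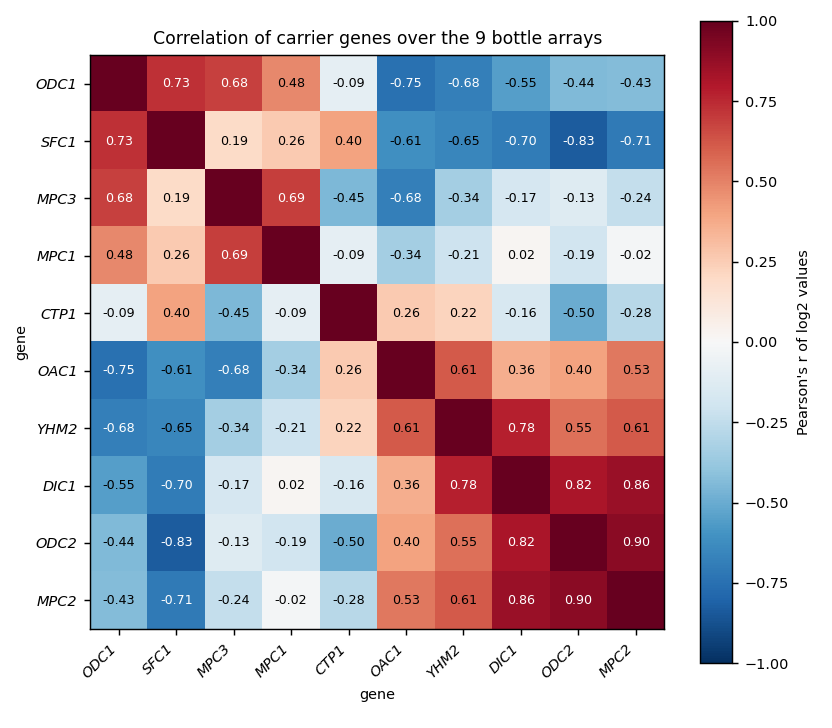
Pearson's r of the log2 values of each pair of carrier genes (both axes) over the 9 bottle arrays, coloured from -1 to 1. DIC1, ODC2 and MPC2 have r of 0.82 to 0.90 with each other, and SFC1 has r of -0.83 to -0.70 with them. DIC1 with ODC2 did not pass (exact permutation adjusted p = 0.106). Nor did Pearson's r of SFC1 with ODC2, DIC1 or MPC2 (exact permutation adjusted p = 0.055, 0.142 and 0.13). Without day 7 replicate 1 and day 19 replicate 1, r was 0.33 for DIC1 with ODC2, 0.53 for ODC2 with MPC2 and 0.84 for DIC1 with MPC2. For SFC1 it was then -0.74 with ODC2, -0.67 with DIC1 and -0.6 with MPC2.

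Among all genes above background, the genes whose values followed a carrier most closely are named as a description over arrays that share the split between reference and bottles. For ODC1 the closest over 12 arrays were CAT8 (r = 0.990), HSP12 (0.985) and SDH3 (0.982), and CAT8 was also the closest over the 9 bottle arrays alone (0.951). For SFC1 they were IDP2 (0.988), CTA1 (0.979) and FBP1 (0.977), with IDP2 (0.976) and CTA1 (0.953) again first over the bottle arrays. CAT8 encodes an activator of gluconeogenic genes, IDP2 the cytosolic isocitrate dehydrogenase and CTA1 the peroxisomal catalase. For MPC3 they were the ATP synthase genes ATP15 (0.972), ATP20 (0.963) and ATP17 (0.962) over 12 arrays, and LAP2 (0.963), an aminopeptidase gene, over the bottle arrays. CTP1 was closest to MEU1 (0.974), YHM2 to ADE3 (0.974), MPC1 to GPT2 (0.947), MPC2 to SCW4 (0.967), DIC1 to SML1 (0.943) and OAC1 to YLH47 (0.943). ODC2 was closest to SSA2 (0.971), and GGC1, a carrier of guanine nucleotides, stood among its nearest 3 over both sets of arrays (0.953 and 0.970).

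Of 25 other genes of the mitochondrial carrier family, 6 were higher and 3 lower at day 7, 6 and 4 at day 15, and 6 and 5 at day 19, counts near the shares of all genes (36.8%, 44.9% and 43.5%), with medians of 0.12, 0.11 and -0.04. PIC2, a carrier of copper and phosphate, rose by 2.17 ± 0.400, 2.78 ± 0.400 and 1.92 ± 0.400 at the 3 times, the last being 2.51 without day 19 replicate 1. MRS4, an iron carrier, rose by 1.86 ± 0.321 at day 7. YMC2, a carrier linked to glutamate metabolism, fell by 2.03 ± 0.482 at day 15. The carnitine carrier gene CRC1 rose at all 3 times, by 6.21 ± 0.489 at day 19, and the ADP/ATP carrier gene AAC3 fell at all 3, by 3.87 ± 0.585 at day 19, or 3.05 without day 19 replicate 1.

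Many genes for enzymes that make or use what the carriers move rose. The shares of all genes called higher at day 7, 15 and 19 were 19.7%, 21.4% and 22.7%, and those called lower 17.1%, 23.5% and 20.8%. Of 19 genes of pyruvate dehydrogenase, its bypass and pyruvate carboxylase, 8 were higher at each time and 0, 2 and 1 lower at day 7, 15 and 19. PYC1, a pyruvate carboxylase, rose by 2.98 ± 0.211 at day 7, and ACS1, an acetyl-CoA synthetase, by 3.47 ± 0.483 at day 19. PDC6, a minor pyruvate decarboxylase, rose by 3.02 ± 0.970 at day 7, but by 1.99 without day 7 replicate 1, and its call was lost without that array or any 1 reference array (adjusted p up to 0.108). PKP2, a kinase of pyruvate dehydrogenase, rose by 1.85 ± 0.443 at day 19, or 1.28 without day 19 replicate 1. Of 22 genes of citrate and dicarboxylate enzymes, 13, 14 and 14 were higher and 1 lower at each time, with medians of 1.36, 1.38 and 1.15. CIT3, a mitochondrial citrate synthase, rose by 4.27 ± 0.694 at day 19, IDP2 by 3.31 ± 0.709 and IDP3, the peroxisomal isocitrate dehydrogenase, by 2.57 ± 0.562. Without day 19 replicate 1 these were 3.21, 2.68 and 1.75, and all 3 were called under each omission of 1 array. MAE1, the mitochondrial malic enzyme, which makes pyruvate from malate, fell by 2.11 ± 0.335 at day 7. Of 9 genes of the glyoxylate cycle and gluconeogenesis, 7, 7 and 8 were higher and 0 lower, among them SIP4, a regulator of these genes, at 4.23 ± 0.689 at day 19, or 3.32 without day 19 replicate 1.

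Genes of amino acid synthesis, which draws on oxaloacetate and on 2-oxo acids, were called in both directions, as were all genes. Of all genes, 19.7%, 21.4% and 22.7% were called higher at day 7, 15 and 19, and 17.1%, 23.5% and 20.8% lower. Of 12 genes of leucine, isoleucine and valine synthesis, 1 was higher and 4 lower at day 7 and day 15, and 1 and 2 at day 19. LEU9, a 2-isopropylmalate synthase, fell by 2.32 ± 0.584 at day 7 (-1.67 without day 7 replicate 1) and LEU3, the regulator of leucine genes, by 1.23 ± 0.286, while LEU4, the main 2-isopropylmalate synthase, rose by 0.77 ± 0.249. The LEU4 call was lost without any 1 reference array and without day 7 replicate 2 or 3 (adjusted p up to 0.117). Of 9 lysine genes, 1, 2 and 2 were higher and 2, 3 and 3 lower. LYS20, a homocitrate synthase, rose by 1.49 ± 0.328 at day 19, and LYS9, an enzyme later in the pathway, fell by 2.13 ± 0.433. Of 8 aspartate and glutamate enzymes, 2 were higher at each time and 3, 5 and 4 lower. AAT1, the mitochondrial aspartate aminotransferase, fell by 2.07 ± 0.667 and the asparaginase gene ASP1 by 1.99 ± 0.495 at day 7, where GDH2, a glutamate dehydrogenase, rose by 1.20 ± 0.358. GDH3, the other gene called higher then, had the largest change of this list, a rise of 4.03, or 3.04 without day 7 replicate 1. The GDH3 call held with any 1 array left out. The AAT1 call was lost without any 1 reference array or day 7 replicate 1 (adjusted p up to 0.108), and the GDH2 call without reference replicate 1 or 2 or day 7 replicate 1 or 3 (up to 0.0743). Without day 7 replicate 1 and day 19 replicate 1 together, the day 19 counts of lower genes were 2 of 8 in place of 4 here and 4 of 19 in place of 1 in the pyruvate list.

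Of 15 regulators of respiratory, gluconeogenic and amino acid genes, 7, 7 and 5 were higher and 2, 2 and 0 lower. Among all genes, 19.7%, 21.4% and 22.7% were called higher at day 7, 15 and 19, and 17.1%, 23.5% and 20.8% lower. In either direction the shares were 36.8%, 44.9% and 43.5%. HAP4, the activating subunit of the complex that controls respiratory genes, rose by 1.58 ± 0.208 at day 15 and 1.57 ± 0.208 at day 19, and ADR1, an activator of genes for ethanol use, by 3.11 ± 0.417 at day 7. CAT8 rose most at day 7, by 4.45, and the 2 called lower then were HAP1, down by 1.34, and LEU3, down by 1.23. The day 7 calls of CAT8, HAP1 and LEU3 held with any 1 array left out. A list of 16 genes of general mitochondrial content showed few increases. Of these only POR1, the outer membrane porin, was higher, by 0.78 ± 0.191, 0.82 ± 0.191 and 0.79 ± 0.191, and 1, 3 and 6 were lower, among them the import receptor gene TOM70, which fell by 0.94 ± 0.260 at day 19. The medians of these 16 genes were -0.18, -0.17 and -0.41.

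**Figure D5:**
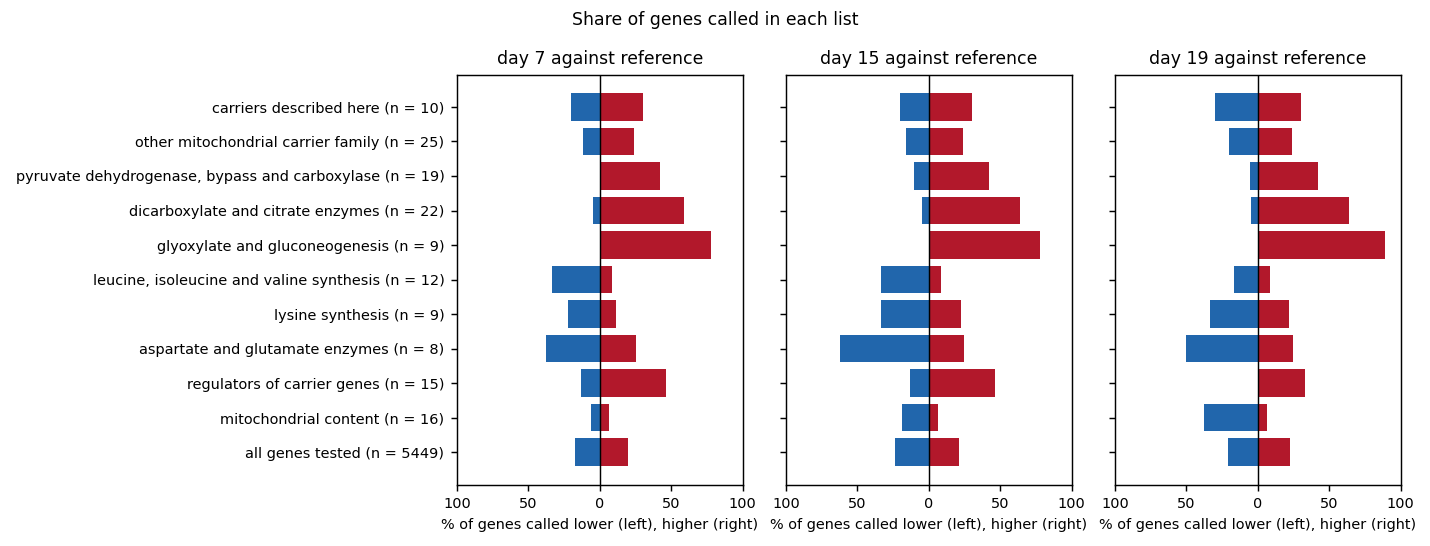
Share of genes called lower (blue, to the left) and higher (red, to the right) against the reference in each gene list, in percent of its genes (x axis), at day 7, day 15 and day 19. The glyoxylate and gluconeogenesis list (7, 7 and 8 of 9 higher) and the dicarboxylate and citrate enzymes (13, 14 and 14 of 22 higher) reach farther to the right than the carriers and than all genes.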

How the data were processed

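Total RNA of 12 EC1118 samples was measured on Affymetrix yeast arrays, 3 per group. The deposited log2 probe set values were made with RMA, per the submitters' processing notes, with software and version not given in the sources used here. No value was rescaled. Of 10928 probe sets, the annotation paired 5498 with 1 S. cerevisiae gene. For the 47 genes with several, the one with the highest mean was kept, which left 5449 genes. Background was set at the 0.95 quantile of values from 1746 probe sets for S. pombe, 4.62 over all arrays and 4.50 to 4.82 by array. A fold is "at least" where no array of the lower group exceeded its background, and is then taken against that background.

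A limma fit (version 3.58.1, R 4.3.3, lmFit and eBayes) covered the 4 groups together, with 8 residual and 3.42 prior degrees of freedom, and Benjamini-Hochberg adjustment over all genes in each comparison. Standard errors and 95% intervals are those of the fit. Within-array differences used exact permutation tests over all 220 arrangements of 3 reference and 9 bottle arrays. Correlations used all 362880 orders. On simulated data for day 7 against the reference, with 5449 genes of which 100 changed by a log2 of 1 and 100 by 2, limma recovered 27% and 82%, with 6 false calls among 115. Unlike the data, the simulation changed few genes and gave a gene the same spread in all groups. These rates are therefore not the power of the real comparisons. The labels call the arrays biological replicates and the bottle assays independent. For the reference no separate cultures are named, so its spread may be technical. The carriers, lists and tests were chosen with earlier results of these data known. All 10 carriers are named, and so are up to 4 called genes per list and comparison and the 3 genes nearest to a carrier by Pearson's r. The called genes named in the text are not always those with the largest change. Alternatives were other scalings, filters, variance models, array weights, a block for replicate number and arrays left out. No sequences were analysed here.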

Additional observations from a re-analysis of the deposited data

How the results depend on the processing

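Each group holds 3 arrays, which limits every value, and SFC1 in the reference is limited further because it lies at background there. Array weights, whose fit stopped before it converged, called 8 carriers at day 7 and 9 at day 15, and 1 (OAC1) for any difference among the bottle days. With single arrays left out, the number of carriers called lay between 4 and 6 for day 7, between 3 and 5 for day 15 and between 4 and 7 for day 19, against 5, 5 and 6, and 0 in each comparison among bottle days. For day 15 it was 3 without reference replicate 1 or 2 and without day 15 replicate 2 or 3. Without day 7 replicate 1 and day 19 replicate 1 together it was 7 at each time. The share of all genes called rose too in that setting, to 44%, 59% and 52.5% from 36.8%, 44.9% and 43.5%. Counts under array weights and single omissions stand here without the share of all genes, so they are not a result about the carriers alone. The replicate block changed no call of a carrier (5, 5 and 6 called, 0 among bottle days). Deviations of same-numbered arrays correlated from -0.28 to 0.41, and those of different-numbered arrays from -0.5 to 0.42. The numbers thus showed no clear pairing of the arrays. The within-array shifts ran from 2.22 to 3.25 (MPC3 minus MPC2), 1.95 to 2.78 (MPC3 minus MPC1), -0.47 to -0.21 (MPC2 minus MPC1) and 3.16 to 3.76 (ODC1 minus ODC2) with arrays left out, and the call or its lack did not change in any of the 4 pairs. Some differences that did not pass with all 12 arrays changed sign. MPC2 at day 19 was -0.01 with median centring, -0.01 with quantile normalization, -0.29 with the coding length trend removed (an alternative chosen after seeing the data), and -0.02, -0.16 and -0.23 without reference replicate 3, day 19 replicate 2 and day 19 replicate 3. OAC1 was -0.09 at day 7 without day 7 replicate 1, and at day 19 it ranged from -0.52 to 0.38 over single arrays left out, 0.38 being the value without day 19 replicate 1 and also without both arrays, and 0.19 at day 19 with array weights. DIC1 was -0.28 and -0.21 at day 7 without day 7 replicate 2 and 3, and -0.26 at day 19 without day 19 replicate 3, but 0.94 and 1.14 at these times without both arrays. The causes of these changes were not tested. For the genes of the other lists, the values with arrays left out were added after seeing the data.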
